A study of Homo sapiens with 14 samples.

Results

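Messenger RNAs of 43 genes for molecular chaperones and chaperonins were examined in the K562 icSHAPE and icLASER profiles. They were taken as a list of gene symbols: a transcript belonged to the set when its Ensembl identifier carried 1 of these symbols in GENCODE, and each gene was represented by its coding transcript with the highest mean RPKM (read density normalized for transcript length and library size). All 43 genes were found among 4257 coding genes with a transcript in at least 1 profile, and 3890 other coding genes with a usable transcript served as the comparison. For 42 genes the transcript was scored in all 4 profiles. HSPH1, which encodes the HSP110 exchange factor, was present only in icLASER in vitro, with an RPKM of 6.86, and gave no differences.

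K562 is an established human chronic myelogenous leukemia line from bone marrow. icSHAPE used NAI-N3, an acylating reagent for flexible 2′-hydroxyls, at 100 mM for 5 min, with DMSO in its control libraries. icLASER used NAz-N3, which after light activation marks solvent-exposed purines at C8, added from a 1 M stock and followed by 10 min of UV light, with controls labelled as having no UV, although the protocol text given for those samples also mentions light. Probing was carried out in the cells (in vivo) or on K562 RNA that had been isolated and refolded (in vitro). The 14 libraries comprised 3 icSHAPE in vivo, 2 icSHAPE in vitro, 3 DMSO, 2 icLASER in vivo, 2 icLASER in vitro and 2 no-UV libraries, and were pooled into 4 profiles. One profile per reagent and condition leaves no replicates, so every difference given here is a description without a test or an error. Each score is an enrichment of reverse transcription stops over the control on a scale from 0 (no enrichment) to 1, and positions at 0.5 or above are called reactive.

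The profiles held between 12256 and 16648 transcripts, and between 46.7% and 62.5% of their scores were 0. Their mean score ran from 0.141 in icSHAPE in vitro to 0.167 in icSHAPE in vivo, with 0.152 and 0.151 for icLASER in vitro and in vivo. Of 10 K562 marker genes, 9 were present, from LMO2 at a mean RPKM of 7.15 to the fetal globin gene HBG1 at 1936, and only TAL1 was absent. None of 4 lymphoid and 2 hepatic markers was present. No read counts come with the scores, which leaves the depth of each value unknown. A score of 0 therefore cannot be told apart from a position with too few reads. Around the start codon of CCT5, for example, all 54 scored positions were 0 in both icSHAPE profiles. Differences in mean score can thus reflect zeros of either kind. RPKM was measured on bulk RNA, in which fewer cells making a transcript and less of it per cell cannot be told apart.

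Molecular chaperones bind unfolded or partly folded proteins and let go of them in cycles driven by ATP. HSP70 proteins take up short hydrophobic stretches with the help of J-domain partners, HSP90 acts later on near-native clients such as kinases, and the ring-shaped chaperonin TRiC, which receives actin and tubulin from prefoldin, encloses whole proteins. Many, but not all, of these genes are transcribed under heat shock factor 1 and are induced together when proteins misfold, while TRiC and prefoldin subunits are expressed at steady levels in growing cells.

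Several short stretches recur below. The first set holds the 27 nt around the start codon (in capitals) of 3 mRNAs that stood out in level or in score, on GRCh38. They lie at chr6:31815745-31815771 (plus strand), chr6:31827939-31827965 (plus strand) and chr19:14518335-14518361 (minus strand), respectively.
HSPA1A: cagggaaccggcATGgccaaagccgcg
HSPA1B: cagggcaccggcATGgccaaagccgcg
DNAJB1: caggagggggtcATGggtaaagactac
HSPA1A and HSPA1B differ in few places here, which bears on the sharing of reads described with their levels. The start codon context of the set as a whole was ordinary: a purine stood at position -3 in 36 of 42 members (85.7%) and 88.9% of other coding genes, and a G followed the ATG in 57.1% and 54.4%.

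The second set holds the last 27 nt of the coding sequence of the cytosolic HSP70 and HSP90 genes. The 15 capitals are the codons of the acidic C-terminal motif, which tetratricopeptide co-chaperones such as STIP1 bind, and the stop codon. They lie at chr11:123057734-123057760 (minus strand), chr6:31817656-31817682 (plus), chr6:31829850-31829876 (plus), chr14:102081712-102081738 (minus) and chr6:44253572-44253598 (plus).
HSPA8: gggcccaccattGAAGAGGTTGATTAA
HSPA1A: ggccccaccattGAGGAGGTAGATTAG
HSPA1B: ggccctaccattGAGGAGGTGGATTAG
HSP90AA1: acatcacgcatgGAAGAAGTAGACTAA
HSP90AB1: gcgtctcgcatgGAAGAAGTCGATTAG
These codons encode the same short motif in HSP70 and HSP90, and the scores of the 27 nt are given with the values around stop codons.

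Chaperone mRNAs were abundant. Their median RPKM, averaged over the 4 profiles, was 38.2 with quartiles of 16.04 and 69.6, against 10.0 (4.16 and 21.2) for the other coding genes. This average divided the sum by 4 also where a profile lacked the transcript, which lowered it mainly for the other genes. A profile held 2482 to 3341 of the 3890 other genes, against 42 or 43 of the 43 members. Among transcripts present in a profile, the members' median was 37.1 in icSHAPE in vitro, 33.9 in icSHAPE in vivo, 38.6 in icLASER in vitro and 37.99 in icLASER in vivo. For the other genes that median lay between 12.3 and 15.4 in all profiles. The members ranged from a mean of 7.36 for DNAJC7, apart from HSPH1, to 420 for HSPA1B.

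**Figure D1:**
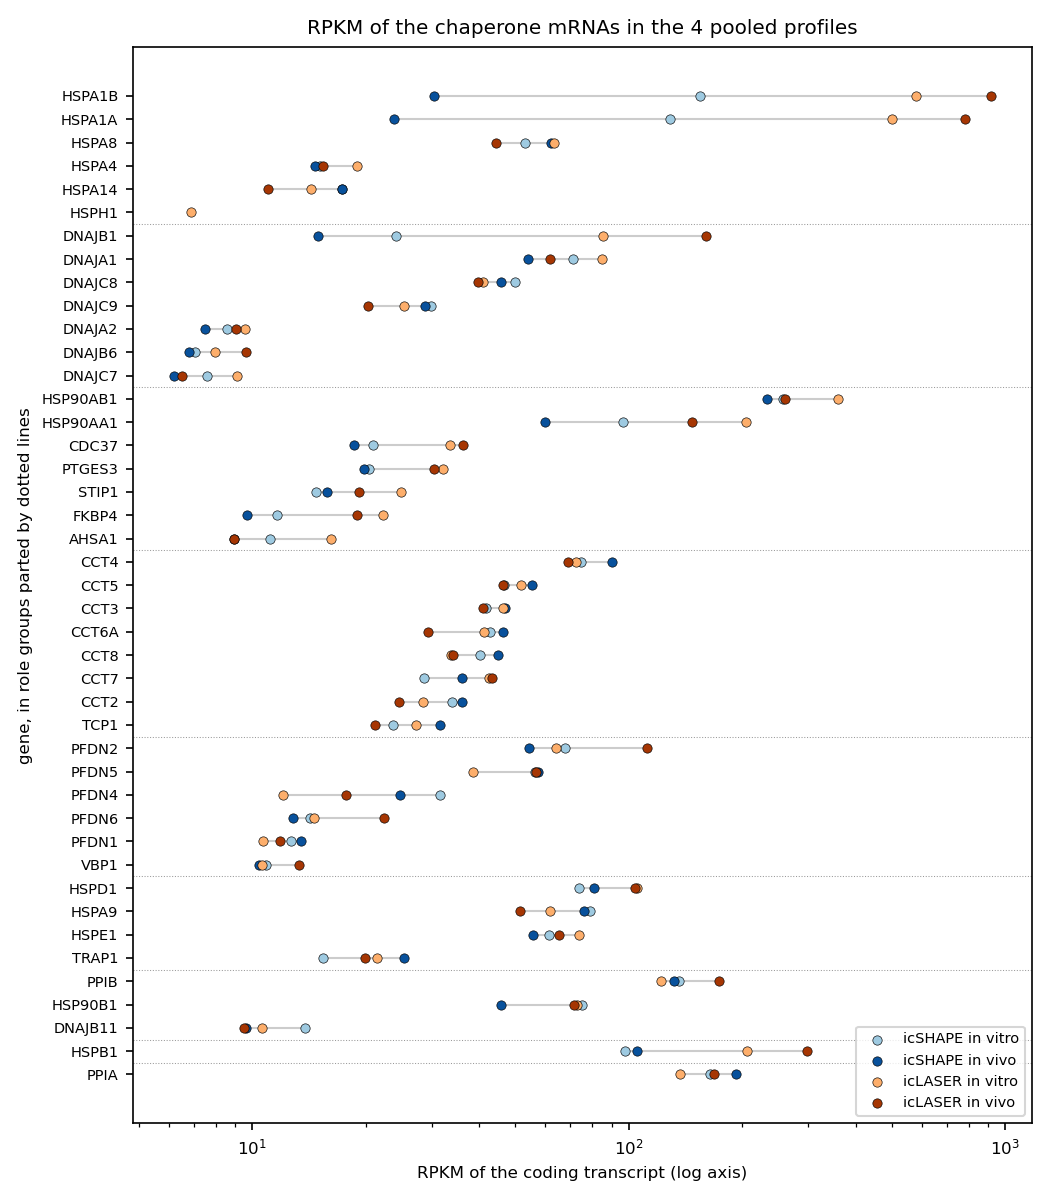
RPKM of each chaperone mRNA in the 4 pooled profiles (log axis), 1 row per gene, grouped by role, with 1 point per profile. HSPA1A and HSPA1B spread from 23.8 to 782 and from 30.4 to 916, while the TRiC subunits stay within 21.2 to 90.4.

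The highest levels belonged to few genes. HSPA1B and HSPA1A, the stress-inducible HSP70 genes, had mean RPKM of 420 and 358. The constitutive cytosolic HSP90 gene HSP90AB1 followed at 277, the small heat shock protein HSPB1 at 176, and the cyclophilins PPIA (cytosolic) and PPIB (endoplasmic reticulum) at 165 and 141. The inducible HSP90AA1 stood at 127. The mitochondrial chaperonin HSPD1 led its compartment with 91.05, DNAJB1 led the J-domain proteins with 71.3, and PFDN2 led prefoldin with 74.6. TRiC, whose 8 subunits assemble in equal number, showed a narrow range, from TCP1 at 25.9 to CCT4 at 76.7.

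Reads of near-identical genes can be shared, which bears on the top of this list. The coding sequences of HSPA1A and HSPA1B, 1926 nt each, were 99.8% identical, and 1827 positions lay in identical runs with at least 15 nt of identity on each side. Their scores across the 1926 aligned coding positions correlated at r = 0.950, 0.861, 0.887 and 0.943 in icSHAPE in vitro, icSHAPE in vivo, icLASER in vitro and icLASER in vivo. In the 5′ UTRs, which were 88.3% identical, r was 0.457 to 0.635, and in the 3′ UTRs, 46.6% identical, it was 0.147 to 0.223. The level of either gene alone is therefore uncertain, and so are those of HSP90AA1, HSPA8, HSPD1, HSPE1 and PPIA, which have processed pseudogenes. Isoforms of 1 gene share reads as well, and for 8 of the 43 genes another transcript, of any type, had a higher RPKM than the coding one used.

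The inducible HSP70 mRNAs were lower in vivo than in vitro with icSHAPE and higher in vivo with icLASER. HSPA1A had an RPKM of 128 in icSHAPE in vitro, 23.8 in icSHAPE in vivo, 500 in icLASER in vitro and 782 in icLASER in vivo. HSPA1B had 154, 30.4, 579 and 916 in the same order. For both genes icSHAPE in vivo was the lowest profile and icLASER in vivo the highest. DNAJB1, the J-domain partner of the inducible HSP70, had the same order, at 24.2, 14.9, 85.3 and 161.

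To compare profiles, the ratio was taken on the log2(RPKM + 1) scale, which understates changes of low genes, and the median over all coding genes (0.09 for icSHAPE in vivo to in vitro, 0.05 for icLASER, 0.02 and -0.01 for icLASER to icSHAPE in vitro and in vivo) was subtracted. Between icSHAPE in vivo and in vitro, 2 members were at least 2-fold lower in vivo, where 0.377% of other coding genes were, and 0 members were at least 2-fold higher, where 0% of the others were. These were HSPA1A with a ratio of -2.47, a 5.54-fold lower level, and HSPA1B with -2.40, or 5.27-fold. They held places 2 and 3 from the bottom among 2430 genes. HSP90B1, the HSP90 of the endoplasmic reticulum, was the next at -0.79, followed by HSP90AA1 at -0.77 and DNAJB1 at -0.75. TRAP1, the mitochondrial HSP90, was the highest at 0.60, with RPKM of 15.4 in vitro and 25.3 in vivo, and the TRiC subunits TCP1 (0.31) and CCT7 (0.24) came next. Over all 42 members the median was -0.14, against 0.00 for the others. By role, 7 of 8 TRiC subunits lay above 0, whereas 7 of 7 J-domain and 6 of 6 prefoldin mRNAs lay below it. Of other coding genes, 50.3% lay above 0.

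With icLASER no member reached 2-fold between in vivo and in vitro, where 0.0685% of other coding genes were that much higher and 0.342% that much lower. DNAJB1 was the highest at 0.86, the 17th of 2962 genes, followed by PFDN2 (0.74) and HSPA1B (0.61), with HSPA1A at 0.59. AHSA1, the activator of the HSP90 ATPase, was the lowest at -0.84, with RPKM of 16.2 in vitro and 8.94 in vivo. HSPA8, the constitutive HSP70, had -0.55 with 63.2 and 44.3, and CCT6A had -0.53 with 41.1 and 29.4. All 6 prefoldin mRNAs lay above 0 with a median of 0.48, and all 8 TRiC mRNAs lay below 0 with a median of -0.22. Of other coding genes, 50.2% lay above 0. The medians of these 2 roles thus stood on opposite sides of 0 from those they had in icSHAPE.

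The comparison of the reagents within 1 condition separated the inducible genes most. In vitro, 5 members were at least 2-fold higher in icLASER than in icSHAPE, where 2.6% of other coding genes were: HSPA1A at 1.93 (the second of 2428 genes), HSPA1B at 1.87 (the third), DNAJB1 at 1.75 (the fifth), and HSP90AA1 and HSPB1 at 1.04 each. One member, the prefoldin subunit PFDN4, was at least 2-fold lower at -1.34, where 1.34% of the others were. In vivo, 6 members were at least 2-fold higher in icLASER, where 4.69% of the others were, and 0 were lower, where 0.722% were. HSPA1A had 4.99, a 31.8-fold higher level, and HSPA1B 4.89, or 29.6-fold, and these were the first and second of 2811 genes. DNAJB1 had 3.36, or 10.3-fold, and was the fourth, and its ratio was 5.21 when RPKM was summed over all DNAJB1 transcripts. In that sum a transcript missing from a profile counted as 0. No RPKM below 5 is given, so isoforms missing from icSHAPE in vivo can raise the summed ratio. HSPB1 (1.51), HSP90AA1 (1.30) and PFDN2 (1.04) followed. Without HSPA1A, HSPA1B and DNAJB1 the counts were 2 in vitro and 3 in vivo. The reagents were applied in independent experiments, so that reagent, culture and library cannot be told apart in these ratios.

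**Figure D2:**
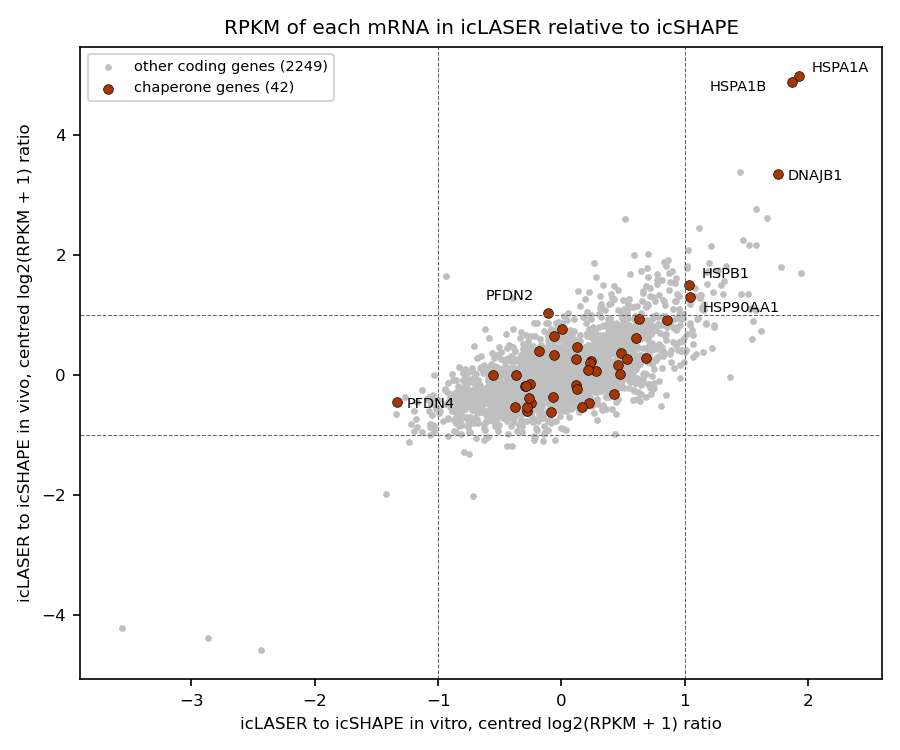
Centred log2(RPKM + 1) ratio of icLASER to icSHAPE in vitro (horizontal) and in vivo (vertical), 1 point per gene, with 42 chaperone genes over 2249 other coding genes present in all profiles and dashed lines at 2-fold. HSPA1A, HSPA1B and DNAJB1 lie at the upper right, at 1.93 and 4.99, 1.87 and 4.89, and 1.75 and 3.36.

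The set was also divided by a textbook list of heat shock factor 1 targets (HSPA1A, HSPA1B, HSPA8, HSPH1, HSPA4, HSP90AA1, HSP90AB1, DNAJB1, DNAJA1, HSPB1, HSPD1, HSPE1, STIP1, AHSA1 and FKBP4). In vitro, 14 of the 14 measured lay above 0 with a median of 0.58, against 11 of the 28 other members, with a median of -0.08. In vivo, 13 of 14 lay above 0 with a median of 0.33, the exception being HSPA8 at -0.47, against 12 of 28 and a median of -0.16. Of other coding genes, 49.8% lay above 0 in each condition. All 7 cytosolic HSP90 and co-chaperone mRNAs also lay above 0, with medians of 0.63 in vitro and 0.61 in vivo. Among these 7, CDC37 and PTGES3 are not on the textbook list. Of a further list of 77 chaperone and co-chaperone genes outside the set, 47 had a usable transcript, and the ratio reached 2-fold in vivo in 2 of 38 (BAG6 at 1.10 and FKBP2 at 1.04) and in vitro in 1 of 36. Whether RPKM was taken from treated or control libraries is not given in the sources used here, and the part of the enrichment step in these ratios was not tested.

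Proximal promoters gave a related description. The letters GAANNTTCNNGAA or TTCNNGAANNTTC, alternating units of a heat shock element read on both strands, were searched in the RefSeq promoter of each gene, from 250 bases before to 50 after the start, in the table's own build. They were found in 6 of the 39 members with an entry (DNAJA1, DNAJB6, HSP90AA1, HSP90AB1, HSPA8 and HSPD1), or 15.4%, and in 172 of 35116 promoters in the table, or 0.490%. HSPA1A, HSPA1B and DNAJB1 did not hold these letters in that window. HSPA14, CCT6A, PFDN2 and FKBP4 had no entry.

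Reactivity was compared by region as the mean score in vivo minus in vitro over positions scored in both profiles, for regions with at least 20 such positions, and a difference of 0.05 was taken as the size worth counting. Members had 5′ UTRs with a median of 64.4% G and C, against 67.3% in other coding genes. Their coding sequences were longer (1194 against 831 nt) and lower in G and C (46.3% against 52.1%), and their 3′ UTRs shorter (378 against 561 nt) and also lower in G and C (35.95% against 42.1%). The regions differ in composition as well as in the readout, and the part of composition was not tested beyond the alternatives given at the end.

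The clearest region was the 3′ UTR with icLASER. There 40 of 42 members (95.2%) scored higher in vivo than in vitro, where 85.7% of 2751 other coding genes did. The median difference was 0.10 for members, against 0.051 for the others. Of the members, 28 (66.7%) were at least 0.05 higher, where 50.7% of the others were, and 1 was that much lower, where 1.42% were. The further list of chaperone genes outside the set did not share the higher values. Its median was 0.039, and 15 of 37 (40.5%) were at least 0.05 higher. In 1284 other genes with 3′ UTRs of 206 to 927 nt, the middle of the members' range, the median was 0.063. Among other genes within the members' range of mean RPKM it was 0.050. That range, 1.72 to 420, holds both quartiles of the other genes (4.16 and 21.2). It therefore does not match the genes by level, and the part of level was not tested. With icSHAPE the 3′ UTR median was 0.041, against 0.028. With that reagent 18 members were at least 0.05 higher, where 25.2% of the others were, and 3 were lower, where 2.19% were.

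In 5′ UTRs the icLASER median lay below 0, while the icSHAPE median lay above 0 as deposited and below 0 when both profiles were scaled to one mean. With icLASER the members' median was -0.055, against -0.049, and 22 of 39 were at least 0.05 lower in vivo, where 49.5% of the others were, while 1 was higher, where 9.44% were. With icSHAPE the median was 0.016, against 0.014, and 15 of 39 were higher by 0.05, where 28.5% were, and 6 lower, where 17.6% were. In coding sequences the icLASER median was 0.001, against -0.009, with 3 members higher, where 6.1% were, and 1 lower, where 14.9% were. The icSHAPE median was 0.018, against 0.034, with 7 members higher, where 29.5% were, and 1 lower, where 1.38% were.

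Over the whole transcript, 9 of 42 members were at least 0.05 higher in vivo with icSHAPE, where 14.4% of other coding genes were, and 0 were lower, where 0.0419% were. The cytosolic HSP90 genes HSP90AB1 (0.0829) and HSP90AA1 (0.0827) led and HSP90B1 (0.0751) came after them, at places 20, 21 and 31 of 2430 genes. With icLASER 1 member was higher, where 2.98% were, and 0 were lower, where 1.99% were. The 1 was DNAJC9, at 0.159 and 0.246 and place 14 of 2962. Its profile of 3032 nt overlapped the reference of 2295 nt only in part, and the first 1607 positions were left out. All DNAJC9 values therefore rest on that overlap, with 1395 scored positions, and not on the whole transcript.

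The sign of the small icSHAPE differences depended on scale, because icSHAPE in vivo had the higher mean score. As deposited, 24 of 39 members were above 0 and 14 below in 5′ UTRs, 32 and 10 in coding sequences and 36 and 6 in 3′ UTRs. Of other coding genes, 57.7%, 87.1% and 81.9% were above 0 in these regions. When both profiles were scaled to one mean, the members' splits became 16 and 22, 12 and 30, and 31 and 11. The shares of the others became 38.7%, 53.8% and 58.8%. In coding sequences members were thus above 0 less often than the others, as deposited and after scaling. The scaled medians were -0.015, -0.012 and 0.025 for members, against -0.019, 0.003 and 0.007 for the others. The icLASER splits of the members did not change with scaling.

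TRiC had the highest 3′ UTR median with icLASER among the roles with more than 1 gene. With icLASER all 8 subunits were at least 0.05 higher in vivo, where 50.7% of other coding genes were, with a median of 0.139. CCT8 scored 0.124 in vitro and 0.397 in vivo over 123 positions, a difference of 0.273 that ranked 20th of 2793 genes, and its share of reactive positions was 5.69% and 33.3%. TCP1 had 0.0675 and 0.242 over 51 positions, CCT5 had 0.0904 and 0.259 over 265, and CCT2 had 0.138 and 0.286 over 215. The smallest of the 8 differences was that of CCT7, at 0.0839. With icSHAPE the same 3′ UTRs had a median difference of 0.015, which became -0.004 when scaled to one mean, and 0 of 8 were at least 0.05 higher. CCT6A was lower with icSHAPE, at 0.175 in vitro and 0.117 in vivo, but higher by 0.022 by the median score, and CCT8 had 0.139 and 0.102. In the 5′ UTR CCT8 had the second lowest icLASER difference of the members, at 0.314 and 0.120, opposite in sign to its 3′ UTR. Averaged over all coding transcripts this 5′ UTR difference was -0.10. The CCT8 transcript used has a 5′ UTR of 346 nt and a coding sequence of 1428 nt. Part of that 5′ UTR may be coding in other isoforms, which was not examined. The 30 nt with the largest icLASER difference in CCT8 and TCP1 are shown because they carry much of this signal, and were picked for their values. Capitals mark nucleotides at least 0.5 higher in vivo.
CCT8: tTAtttTGTGtttGTaTtcttGGctgGatG
TCP1: tattTatAacaaTgttaAatgcAattGtct
They lie at chr21:29056354-29056383 and chr6:159779001-159779030, both on the minus strand of the 3′ UTR. The CCT8 stretch had mean icLASER scores of 0.0825 (in vitro) and 0.544 (in vivo), while icSHAPE gave 0.118 and 0.124. In TCP1 it was 0.0720 and 0.316, with 0.0582 and 0.103 for icSHAPE. The capitals include T (U in the RNA) as well as A and G, although NAz-N3 reacts with purines.

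The mitochondrial chaperones differed most with icSHAPE in the 5′ UTR. HSPD1, the mitochondrial HSP60, scored 0.126 in vitro and 0.342 in vivo over 111 positions, and ranked 8th of 2051 genes, although the difference was 0 by the median score. HSPE1, its HSP10 lid, had 0.172 and 0.329, and the mitochondrial HSP70 gene HSPA9 was higher by 0.111. These 3 were above 0.05 also after scaling to one mean, where the lowest was 0.0791. Of other coding genes, 28.5% were at least 0.05 higher as deposited and 15.2% after scaling. TRAP1 had too few scored 5′ UTR positions. HSPD1 and HSPE1 are transcribed in opposite directions from 1 shared promoter region on chromosome 2. At the start codon of HSPD1 (shown with ATG in capitals), 63 positions scored 0.223 in vitro and 0.567 in vivo with icSHAPE, the highest difference of the 42 members, and 0.211 and 0.168 with icLASER. The second stretch is the 5′ UTR window with the largest icSHAPE difference, in which capitals mark nucleotides at least 0.5 higher in vivo.
HSPD1 start: cccagccgagaaATGcttcggttaccc
HSPD1 5′ UTR: TtTcTaggcTtttctaGgcgccCAgCCgAG
The first spans an exon junction (chr2:197500160-197500169 and chr2:197498834-197498850, minus strand) and the second lies at chr2:197500160-197500189, so their ends overlap. The window scored 0.133 and 0.475 with icSHAPE and 0.0969 and 0.133 with icLASER. In 3′ UTRs all 4 mitochondrial mRNAs were at least 0.05 higher with icLASER, where 50.7% of other coding genes were.

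The 2 cytosolic HSP90 genes were higher in vivo in all 3 regions with icSHAPE. HSP90AB1 scored 0.127 in vitro and 0.341 in vivo in its 5′ UTR, ranking 9th of 2051, 0.135 and 0.210 in its coding sequence, and 0.0369 and 0.137 in its 3′ UTR. The 5′ UTR difference was 0.085 averaged over all coding transcripts, and the 3′ UTR difference 0.0345 by the median score. HSP90AA1 had differences of 0.108, 0.072 and 0.107 in the same regions, the last of them 0.058 by the median score. HSP90B1 had the highest coding sequence difference of the members, from 0.154 to 0.233, but 0.006 in its 5′ UTR, and TRAP1 had 0.018 in its coding sequence, both of which fell below 0 after scaling to one mean. Scaling to one mean left the coding values of HSP90B1, HSP90AB1 and HSP90AA1 at 0.046, 0.046 and 0.037. With icLASER the coding sequences of these genes did not stand out, and HSP90AA1 was lower, at 0.199 and 0.155. FKBP4, an immunophilin co-chaperone, had the second highest icLASER 5′ UTR difference of the members, at 0.167 and 0.198. Some co-chaperone mRNAs were lower in vivo with icSHAPE in the 5′ UTR or coding sequence, with -0.153 and -0.117 for the 5′ UTRs of AHSA1 and STIP1 and -0.039 for the coding sequence of PTGES3, although the value of AHSA1 was 0.0250 with transcripts of equal length. In the 3′ UTR all 7 mRNAs of the cytosolic HSP90 and co-chaperone role were higher with icSHAPE as deposited, AHSA1 by 0.056, and 5 of 7 after scaling to one mean. Of other coding genes, 81.9% were higher as deposited and 58.8% after scaling.

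Around the stop codons given above, the HSP90 pair again had the higher icSHAPE differences. The last 27 nt of HSP90AA1 scored 0.0532 in vitro and 0.304 in vivo, and those of HSP90AB1 0.0567 and 0.234. HSPA8 had 0.0669 and 0.117, HSPA1A 0.129 and 0.113, and HSPA1B 0.050 and 0.103. With icLASER the same nucleotides gave 0.0845 and 0.0643 in HSP90AA1 and 0.0493 and 0.115 in HSP90AB1. These values cover all 27 nt, and the motif codons were not scored on their own. Within 30 nt on each side of the stop codon, members had a median difference of 0.052 with icSHAPE, against 0.050 in other coding genes, and of 0.076 with icLASER, against 0.032, and 36 of 42 (85.7%) were above 0 with icLASER, against 70.3%. Within 30 nt of the start codon the medians were near those of the other genes, at 0.036 against 0.025 with icSHAPE and -0.045 against -0.044 with icLASER.

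For HSP90AB1 the 5′ UTR window with the largest icSHAPE difference is shown, picked for its value, with nucleotides at least 0.5 higher in vivo in capitals.
HSP90AB1: TaCgttgCtcactattacgTatAatccttt
It lies at chr6:44247156-44247185 on the plus strand and scored 0.218 and 0.494 with icSHAPE and 0.120 and 0.0602 with icLASER.

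All 5 mRNAs of the cytosolic HSP70 and HSP110 family with enough 5′ UTR positions scored lower in vivo there with icLASER, as did 1809 of 2414 other coding genes. The median difference of the 5 was -0.123, and 4 were at least 0.05 lower, where 49.5% of other coding genes were. HSPA8 scored 0.348 in vitro and 0.133 in vivo over 72 positions, the lowest difference of the members at -0.215, which was -0.133 by the median score and -0.045 averaged over all coding transcripts. HSPA1A had 0.263 and 0.140 over 214 positions, and HSPA1B 0.249 and 0.119 over 210. In the coding sequence HSPA1A scored 0.167 and 0.171 with icLASER and 0.164 and 0.173 with icSHAPE, so that large differences in RPKM went with small ones in reactivity. The share of zero scores of HSPA1A was 27.4% in icSHAPE in vitro, 31.7% in icSHAPE in vivo, 32.7% in icLASER in vitro and 18.1% in icLASER in vivo. HSPA4, an HSP110 family exchange factor, was the 1 member besides DNAJB1 below 0 in the icLASER 3′ UTR, at 0.127 and 0.119. The 27 nt at the start codon of HSPA1A scored 0.157 and 0.314 with icSHAPE and 0.372 and 0.211 with icLASER. HSPA14, a ribosome-associated HSP70, had a 3′ UTR at 0.0595 and 0.256 with icLASER, and 0.117 and 0.0475 with icSHAPE, the lowest icSHAPE difference of that region, or -0.017 by the median score. The windows of lowest icLASER difference in their 5′ UTRs are shown as the paired loci of this difference, with capitals for nucleotides at least 0.5 lower in vivo.
HSPA1A: tttTtcGaGagtgactcccGttgtcccaag
HSPA1B: GcttcGtctTtcGaGAGtgactcccgcggt
They lie at chr6:31815582-31815611 and chr6:31827772-31827801 on the plus strand. With icLASER they averaged 0.339 and 0.158 in HSPA1A and 0.369 and 0.120 in HSPA1B.

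DNAJB1 stood apart from the set in every region with icLASER. With icLASER its 5′ UTR scored 0.344 in vitro and 0.556 in vivo over 48 positions, ranking 12th of 2453 genes, its coding sequence 0.0904 and 0.190, ranking 36th of 2961, and its 3′ UTR 0.226 and 0.125, place 3 from the bottom of 2793. With icSHAPE the 5′ UTR had 0.360 and 0.155, and the 3′ UTR was higher by 0.101. It was the 1 member of 42 that was 0.05 higher with icSHAPE and 0.05 lower with icLASER in the 3′ UTR, where 0.142% of other coding genes were. These values belong to 1 isoform, placed on the reference by its scores. In another DNAJB1 transcript, whose length equals the reference and whose coding sequence has 723 nt in place of 1023, the icLASER differences were 0.0278, 0.0457 and -0.00305 in the 3 regions and the icSHAPE 5′ UTR difference was 0.0333. The stretches of largest icLASER difference are shown with nucleotides that differ by at least 0.5 in capitals, higher in vivo in the first and lower in the second.
DNAJB1 5′ UTR: gGagCCgggGgacGGCgAcagcgGgtcGgc
DNAJB1 3′ UTR: AtcAGtttGtGcTtTATtctgTaTttgtct
They lie at chr19:14518368-14518397 and chr19:14515489-14515518 on the minus strand. The first scored 0.343 in vitro and 0.665 in vivo with icLASER and 0.388 and 0.153 with icSHAPE. The second scored 0.489 and 0.124 with icLASER and 0.120 and 0.364 with icSHAPE. In both stretches the reagents differed in opposite directions.

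In the icSHAPE 3′ UTR all 7 J-domain mRNAs, DNAJB1 among them, were higher in vivo, where 81.9% of other coding genes were. Of the 7, 5 were higher by at least 0.05, where 25.2% of the others were. Both counts were the same after scaling to one mean, where the shares of the others were 58.8% and 12.3%. DNAJC8 had 0.0607 in vitro and 0.170 in vivo, a difference that was 0.041 by the median score, 0.0547 averaged over all coding transcripts and 0 with transcripts of equal length. Its 5′ UTR, with only 21 scored positions, had the lowest icSHAPE difference of the members, at 0.514 and 0.211, and its coding sequence the second lowest, at 0.256 and 0.214. DNAJC9, a histone-binding J-domain protein, was the second highest in coding sequence with icLASER, at 0.203 and 0.274, and DNAJA2, a partner of constitutive HSP70, the lowest, at 0.255 and 0.183.

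Prefoldin mRNAs are short, and PFDN2 and PFDN4 had fewer than 20 scored 5′ UTR positions. PFDN5 had a 3′ UTR of 75 scored positions at 0.114 in vitro and 0.303 in vivo with icLASER, but 0.157 and 0.101 with icSHAPE. PFDN1 was lower in the 5′ UTR with both reagents, at 0.322 and 0.153 with icSHAPE and 0.386 and 0.20 with icLASER over 28 positions. PFDN4 was higher by 0.052 in its coding sequence with icLASER, the third highest of the members, and PFDN2 lower by 0.037, the third lowest. VBP1, also a prefoldin subunit, was nearly unchanged in the icLASER 3′ UTR at 0.164 and 0.168. The chaperone mRNAs of the endoplasmic reticulum (HSP90B1, DNAJB11 and PPIB) were at least 0.05 higher in the 3′ UTR with both reagents in 3 of 3 cases, from 0.065 to 0.121, where 14.6% of other coding genes were, and with icSHAPE they were so after scaling as well. By the median score the icSHAPE difference of DNAJB11 was 0. PPIA, the cytosolic cyclophilin, had the lowest icSHAPE difference in coding sequence, at 0.201 and 0.148, or -0.018 by the median score. HSPB1, an ATP-independent holdase, had a 3′ UTR at 0.0600 and 0.207 with icLASER over 92 positions, against 0.0416 and 0.0766 with icSHAPE, and its coding sequence differed little with either reagent (0.015 and 0.020).

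Members past 0.05 in 1 direction with both reagents were few. In the 3′ UTR 10 of 42 were higher with both (HSPA9, HSP90AB1, HSP90B1, HSPE1, DNAJB11, DNAJC9, PFDN2, AHSA1, PPIA and PPIB), where 14.6% of other coding genes were. Among them HSP90AB1 had 0.0173 in vitro and 0.134 in vivo with icLASER, and PFDN2 had 0.129 and 0.285. The icLASER difference of HSP90AB1 was 0.038 by the median score, and that of PPIA was -0.000473 averaged over all coding transcripts. In the 5′ UTR 0 of 39 were higher with both, where 1.8% were, and 4 were lower with both (DNAJC8, PFDN1, STIP1 and AHSA1), where 8.63% were. The HSP90 co-chaperones AHSA1 and STIP1 had 5′ UTR scores of 0.509 and 0.414 and of 0.488 and 0.403 with icLASER, and with transcripts of equal length the AHSA1 difference was -0.0117. Another 6 were higher with icSHAPE and lower with icLASER (HSPA9, HSPA14, HSP90AA1, HSPD1, DNAJA1 and CCT6A), where 14.1% were. In coding sequences 0 of 42 were past 0.05 in the same direction with both, where 1.87% of the others were higher and 0.133% lower, and 0 were higher with icSHAPE and lower with icLASER, where 6.85% were.

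Score patterns along an mRNA were compared by the Pearson correlation over positions, which share a library and a sequence and are no replicates. Between in vivo and in vitro the median r of 42 members was 0.527 with icSHAPE, against 0.481 for 2387 other genes, and 0.690 with icLASER, against 0.536 for 2919. Between reagents it was 0.457 in vitro, against 0.35, and 0.369 in vivo, against 0.322. The HSP90 pair had the largest drop: HSP90AB1 had r = 0.838 between reagents in vitro over 2528 positions and 0.358 in vivo, and HSP90AA1 0.770 over 3202 positions and 0.321. DNAJB1 was at the other end, with 0.196 in vitro, the lowest of the members, and 0.397 in vivo. Members also had higher RPKM than the others, and the part of depth in these correlations was not tested. The HSP90 paralogs, 75.1% identical in coding sequence, correlated with each other at 0.645 in icSHAPE in vitro, 0.492 in icSHAPE in vivo, 0.665 in icLASER in vitro and 0.786 in icLASER in vivo over 2175 positions. For HSPA8 and HSPA1A, 73.3% identical, the corresponding r was 0.425 to 0.520.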

How the data were processed

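Per the methods, reads of biotin-enriched, polyadenylated K562 RNA were mapped to transcripts of Ensembl release 88 (GRCh38), and the submitters' processing notes name Trimmomatic and Bowtie2. The icSHAPE pipeline was then run by the authors with its final coverage and background minimums removed. The deposited RPKM values are the authors' pooled estimates, 1 per transcript and profile, with none below 5. The deposited enrichment score of each nucleotide compares reagent and control stops, and 13 values of icSHAPE in vitro and 3 of icSHAPE in vivo outside 0 to 1 were left out.

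Scores and RPKM were analysed with Python 3.11.15, numpy 2.4.6, scipy 1.17.1 and Biopython 1.88, and drawn with matplotlib 3.10.9. Regions came from GENCODE release 44 on GRCh38. For 13 members the profile had the length of the reference transcript. For 30 it did not, and the profile was placed at the lag where its scores correlated best with trinucleotide means (r of at least 0.2, and 0.1 above any other lag). This step was added after the lengths had been seen. Of 2086 equal-length transcripts past both limits, 99.8% were placed at lag 0. The last 30 nt have no score. For HSPA8 the transcript used has a coding sequence of 1503 nt, and its stop codon was taken from the 1941-nt isoform. The transcripts used for TCP1, CCT7, CCT8 and PPIA had coding sequences of 999, 1020, 1428 and 318 nt, against 1608 nt for CCT2. Regions and start codons belong to the transcript used, and a stretch called 5′ UTR may be coding in another isoform. This was not examined. A pseudocount of 1 was used for RPKM ratios. The computation of region differences was checked on simulated scores with known differences, which is no test of the differences themselves.

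The members, lists, motif and shown windows were chosen with earlier results of these data known. Named in full were the 3 highest and 3 lowest members per reagent and region and per RPKM ratio, the most abundant gene of each role, the paralog pairs and the members past 0.05 with both reagents. Other genes named were singled out after their values were seen. Alternatives covered the region summary, position minimum, transcript choice, base composition, scaling, shift, size, pseudocount and filter.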

Additional observations from a re-analysis of the deposited data

How the results depend on the processing

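No paired analysis was possible because the replicates of each group were pooled into 1 profile, and for the same reason no replicate could be left out. Depth is unknown, so no value has a counting error. The median differences by region kept their side of 0 under all alternatives with icLASER 5′ and 3′ UTRs and the icSHAPE 3′ UTR, while scaling to one mean turned the icSHAPE medians of 5′ UTR and coding sequence. The icLASER coding median ranged from -0.012 to 0.005. The causes of the changes below were not tested.

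Limiting the analysis to transcripts of equal length turned the icSHAPE 5′ UTR differences of AHSA1 (0.0250) and DNAJB1 (0.0333), averaging all coding transcripts turned that of PPIA in the icLASER 3′ UTR (-0.000473), and the median score turned that of CCT6A in the icSHAPE 3′ UTR (0.022). The counts that follow are of members only. Apart from scaling, shares of other coding genes were not computed under these alternatives. The counts therefore show how the number depends on the setting, and not a difference from other genes. Of members at least 0.05 higher with icSHAPE, the 15 in 5′ UTRs became 8 with equal-length transcripts and 7 at a size of 0.1. The 7 in coding sequences became 18 by the median score, 3 by the share of reactive positions, 13 at a size of 0.03 and 0 at 0.1. After scaling they became 0, where 8.5% of other coding genes were that much higher. The 18 in 3′ UTRs became 7 by the median, 10 by the reactive share, 6 with equal-length transcripts and 5 at 0.1. The 22 members lower in the icLASER 5′ UTR became 12 at 0.1. The 1 lower in the icLASER coding sequence became 2 by the median, 2 with the transcript chosen over the profiles that hold it, 2 over all transcripts, 3 over A and G only, 0 with equal lengths, 3 at 0.03 and 0 at 0.1. Summing RPKM over transcripts, with those missing from a profile counted as 0, changed the 2-fold counts. It gave 2 members higher and 4 lower in icSHAPE in vivo, 1 higher in icLASER in vivo and 1 lower in icLASER than in icSHAPE in vivo. Without HSPA1A, HSPA1B and DNAJB1, an alternative added after seeing the data like the equal-length one, 0 were lower in icSHAPE in vivo, and 2 and 3 higher in icLASER than in icSHAPE in vitro and in vivo. Spearman's rho lowered the icLASER median correlation to 0.545.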

Other observations

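The genes next to HSPA1A, HSPA1B and DNAJB1 by the icLASER to icSHAPE RPKM ratio in vivo belonged neither to the set nor to the further list of chaperone genes. On the same centred log2 scale C4orf48 had 3.39 and held place 3 of 2811 genes, between HSPA1B and DNAJB1, with RPKM of 14.6 in icSHAPE in vivo and 161 in icLASER in vivo. VAT1 had 2.78, TGFB1 2.62, ANP32B 2.597, ATP5F1D 2.45, CDT1 2.25 and ACTB 2.17. ANP32B had the highest levels of these, at 108.9 in icSHAPE in vivo and 657 in icLASER in vivo.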
